A study of Gallus gallus with 8 samples.

Results

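SOX2 and SOX3 are the pair of SoxB1 transcription factor genes with counts in a chick series on neural and placodal induction. They were taken by name from the deposited count table and are 2 of its 17329 genes. The series holds messenger RNA libraries of chick embryo ectoderm, 1 per group and 8 in all, with no strain or mutation named in the labels. The anterior and the central epiblast were cut from pre-streak embryos of stage EGKXII/XIII. At Hamburger and Hamilton stage 4 (HH4), Hensen's node, the organiser of the chick embryo, was grafted to the area opaca, which lies outside the embryo proper and makes no nervous system in normal development. Epiblast in touch with the node (grafted area opaca) was taken 5 hours later, and area opaca of the opposite side of those embryos is its ungrafted control. Tissues of HH6/7 were the neural plate, the preplacodal region (source of sense organs and cranial ganglia) in an anterior and a posterior piece, and non-neural ectoderm of the head, which excludes placode precursors. The number of embryos behind a library is not given in the sources used here. Per the labels, 1 laboratory supplied the neural plate, area opaca and pre-streak libraries, and another the preplacodal and non-neural ones.

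SoxB1 proteins bind DNA through a high-mobility-group (HMG) box and act as transcriptional activators, usually together with a partner factor such as a POU protein. In the chick, SOX3 is known as a gene of the early epiblast whose expression later narrows to neural tissue, and SOX2 as the general marker of the neural plate. SOX2 is also kept or switched on again in placodes, where it takes part in forming sensory tissue. The genes have a single coding exon each and alike HMG boxes, and how the counting program treated reads that match both is not given in the sources used here.

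Total counts ran from 13053810 in the grafted area opaca to 138666339 in the posterior preplacodal region. Levels are given as CPM, counts per 1000000 counts of the library, and each CPM ratio has an exact 95% interval, printed in brackets, that covers counting error only. With 1 library per group there is no replicate check and no test between groups. A gene is called higher or lower by size alone, where the ratio reaches 2 and the larger level is 5 CPM or more. Summed levels of 6 non-neural ectoderm markers were 278 CPM in the neural plate and 2836 CPM in the non-neural ectoderm. Of 7 matched neural plate markers, SOX2 among them, 5 reached 1 CPM in the neural plate, and SOX1 and SIX3 were at 0 in every library. As many as 5 also reached it in the anterior epiblast, grafted area opaca and both preplacodal regions, and 4 in the non-neural ectoderm. Their summed level was 846 CPM in the neural plate and 182 CPM in the non-neural ectoderm. It was 518 and 506 CPM in the anterior and posterior preplacodal region. The non-neural ectoderm markers summed to 1396 and 1236 CPM in these regions. Preplacodal markers, 4 in number, summed to 182 CPM in the anterior and 145 CPM in the posterior preplacodal region. They summed to 30.5 CPM in the neural plate and 55.6 CPM in the non-neural ectoderm, and all 4 reached 1 CPM in each of these libraries.

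SOX2 (ENSGALG00000008848) was a gene of the HH6/7 neural plate and, at a lower level, of both preplacodal regions. Before the primitive streak it stood at 1.09 CPM in the anterior epiblast, from 109 counts, and at 0.140 CPM in the central epiblast, from 14 counts. After the graft at HH4 and 5 hours of contact it stood at 3.91 CPM in the grafted area opaca, from 51 counts, and had no count in the ungrafted area opaca, where 3 counts would be 0.206 CPM. At HH6/7 it reached 60.0 CPM in the neural plate. The anterior preplacodal region had 15.5 CPM, the posterior one 14.9 CPM, and the non-neural ectoderm 0.153 CPM, from 9 counts. The neural plate thus had the highest level, the preplacodal regions came next, and the non-neural ectoderm, the central epiblast and the ungrafted area opaca lay at the bottom. The preplacodal regions could not be told apart (anterior over posterior 1.04-fold [0.972, 1.11]), nor could neighbouring pairs among the 3 lowest libraries. In bulk tissue, fewer cells that express a gene and less RNA per cell cannot be told apart.

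SOX3 (NM_204195) was present in every library and varied far less. Its pre-streak levels were 222 CPM in the anterior and 107 CPM in the central epiblast. After 5 hours of contact the grafted area opaca had 116 CPM and the ungrafted area opaca 41.6 CPM. At HH6/7 the neural plate had 131 CPM, the anterior preplacodal region 99.3 CPM, the posterior one 97.1 CPM and the non-neural ectoderm 46.0 CPM. The anterior pre-streak epiblast was therefore the highest library for SOX3, while it was only the fifth highest for SOX2. The preplacodal regions again could not be told apart (1.02-fold [0.996, 1.05]). The grafted area opaca lay just above the central epiblast on total counts (1.08-fold [1.02, 1.14]), but with TMM scaling or DESeq2 size factors the interval held 1, and with the last it also held 1 between grafted area opaca and neural plate. The non-neural ectoderm lay just above the ungrafted area opaca (1.11-fold [1.01, 1.21]), and this order turned with TMM scaling and with DESeq2 size factors.

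The SOX3 row is listed by RefSeq accession. A second row, an Ensembl gene without a name in the files (ENSGALG00000027373), held the same counts as SOX3 in every library within 2 counts. The FPKM row named SOX3 went against its counts, with a log2 ratio of grafted over ungrafted area opaca of -2.49, and is not used. FPKM values of SOX3 below are those of the unnamed row with like counts.

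**Figure D1:**
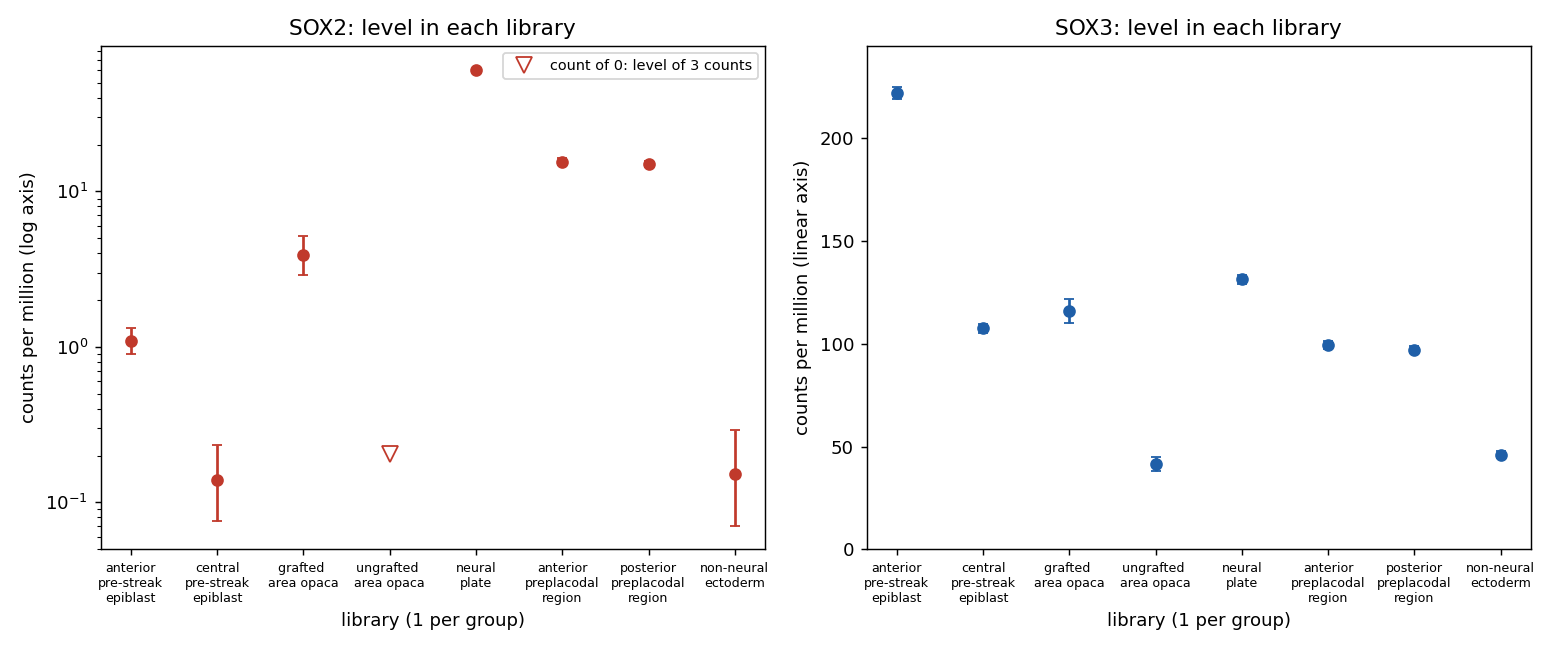
SOX2 (left, log axis) and SOX3 (right, linear axis) in CPM in each of the 8 libraries, with exact 95% Poisson intervals of the counts; the open triangle marks the level of 3 counts where SOX2 had none. SOX2 reached 60.0 CPM in the neural plate and stayed at or under 3.91 CPM in all pre-streak and area opaca libraries, whereas SOX3 lay between 41.6 and 222 CPM in all 8.

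Among HH6/7 tissues both genes were higher in neural plate than in non-neural ectoderm, SOX2 by far the more. SOX2 was 391-fold higher [206, 856] in the neural plate, from 6590 counts against 9. SOX3 was 2.86-fold higher [2.74, 2.98], at 131 against 46.0 CPM. Both were called higher in this comparison, as were 9.18% of the 10206 genes at 5 CPM or more, while 13.1% were called lower. By the interval bound nearest to 1, SOX2 was number 6 of the 9014 genes with at least 10 CPM in either library, and SOX3 number 400. The neural plate library came from another laboratory than the non-neural library, so tissue and laboratory cannot be told apart in this ratio. Blood and endothelial markers summed to 4.72 CPM in neural plate and 62.7 CPM in non-neural ectoderm, and 5 endoderm markers to 1.77 and 58.0 CPM. The part of these cells in the ratios was not tested.

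The preplacodal regions, sampled by the same laboratory as the non-neural ectoderm, shared this direction. SOX2 was 101-fold higher [53.3, 222] in the anterior and 97.6-fold higher [51.3, 214] in the posterior preplacodal region than in non-neural ectoderm. These ratios rest on the same 9 non-neural counts. In FPKM plus a pseudocount of 0.1 they were 59.6-fold and 58.6-fold, and that of the neural plate was 249-fold. SOX2 was number 5 of 8963 and number 7 of 8957 genes in these rankings. SOX3 was 2.16-fold higher [2.07, 2.25] anteriorly and 2.11-fold higher [2.03, 2.20] posteriorly, just past the ratio of 2; in FPKM the ratios were 1.60 and 1.59 and passed no rule. Over all genes with 5 CPM or more, 6.73% were called higher and 7.22% lower in the anterior preplacodal region, and 6.93% higher and 8.48% lower in the posterior one. These comparisons and that of the neural plate share the non-neural library.

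Between neural plate and preplacodal ectoderm SOX2 differed and SOX3 differed little. SOX2 was 3.86-fold higher [3.65, 4.08] in the neural plate than in the anterior preplacodal region, and 4.01-fold higher [3.82, 4.22] than in the posterior one. Only 2.86% and 2.14% of genes at 5 CPM or more were called higher in the neural plate in these comparisons, and 6.60% and 5.03% lower. SOX3 was 1.32-fold higher [1.29, 1.36] in the neural plate than anteriorly and 1.35-fold higher [1.32, 1.39] than posteriorly, under the ratio of 2. Between the anterior and the posterior preplacodal region neither SOX2 nor SOX3 was called, in a comparison that called 0.791% of genes higher and 0.700% lower anteriorly. The 2 laboratories cannot be told apart from the tissues here either. Among 9 measured members of the neural plate list below, 4 were called higher and 0 lower in neural plate than in anterior preplacodal region. Against the posterior one 3 were higher and 0 lower. Of all genes at 1 CPM, 2.40% and 1.80% were higher and 5.53% and 4.22% lower. The list member CDH2 had 184 CPM in the neural plate, 81.8 CPM anteriorly and 64.6 CPM posteriorly. Other genes did not all keep SOX2's proportion. The eye field gene RAX stood at 8.01 CPM in the neural plate, 0.904 CPM in the anterior and 0.123 CPM in the posterior preplacodal region. The zinc finger repressor ZEB2, from the list of SoxB1 regulators below, stood at 93.7 CPM in the neural plate. It had 2.61 CPM anteriorly and 15.3 CPM posteriorly. LHX5, a LIM homeobox gene of the forebrain, had 194 CPM in the neural plate, 196 CPM anteriorly and 161 CPM posteriorly. The part that neural plate tissue in the preplacodal dissections has in the SOX2 level was not tested.

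In area opaca touching the node SOX3 was higher, and SOX2 had counts where the ungrafted side had none. SOX3 was 2.79-fold higher [2.53, 3.07] in grafted than in ungrafted area opaca, at 116 against 41.6 CPM. Of 9437 genes at 5 CPM or more, 7.56% were called higher and 8.57% lower on the grafted side, and SOX3 was number 309 of 8278 genes. SOX2 had 51 counts in grafted and 0 in ungrafted tissue, which makes it at least 19.0-fold higher against a floor of 3 ungrafted counts. The exact 95% interval, which also covers the error of the 51 counts, starts at 14.9-fold. At 3.91 CPM it missed the minimum of 5 CPM; with a minimum of 1 CPM it was called higher, as were 10.1% of genes. Set against the HH6/7 neural plate, the grafted area opaca reached 0.881 of the SOX3 level [0.835, 0.929] but 0.0651 of the SOX2 level [0.0484, 0.0857]. In FPKM the SOX3 ratio was on the other side of 1, at 1.09, and that of SOX2 was 0.0757. These libraries differ in stage and in total counts (13053810 grafted, 109869453 neural plate). Their library codes are also of different style. The part of any of these differences was not tested. On CPM, SOX2 was called lower in grafted area opaca than in the neural plate, as were 16.1% of genes, and SOX3 was not. Of all genes 7.32% were called higher. Markers of node and axial mesoderm, 6 in number, summed to 63.8 CPM in grafted and 6.93 CPM in ungrafted tissue, with SHH at 0 on both and CHRD at 0 on the ungrafted side; 4 of the 6 reached 1 CPM with the graft and 2 without. Mesoderm markers, 4 matched, summed to 11.95 against 0 CPM. Of these 4, only 1 reached 1 CPM with the graft, and TWIST1 and TCF15 were at 0 there. Non-neural ectoderm markers summed to 576 against 2279 CPM. The part of carried-over node cells in the SOX2 and SOX3 counts was not tested.

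In the pre-streak epiblast both genes were higher anteriorly. SOX3 was 2.07-fold higher [2.02, 2.12] in the anterior than in the central epiblast, at 222 against 107 CPM. This put it just past the ratio of 2, with 6.09% of genes called higher and 4.71% lower anteriorly, and it was number 348 of 8083 genes. SOX2 was 7.82-fold higher [4.47, 14.8] anteriorly, from 109 counts against 14. Both levels were too low for the minimum of 5 CPM; with a minimum of 1 CPM SOX2 was called higher, as were 8.61% of genes. Node and axial mesoderm markers summed to 242 CPM in the anterior and 48.0 CPM in the central epiblast, and non-neural ectoderm markers to 411 and 1026 CPM. Mesoderm markers summed to 175 and 59.8 CPM, with 2 and 1 of the 4 matched at 1 CPM or more. Endoderm and hypoblast markers summed to 5.58 and 21.7 CPM. Which cells of the epiblast express these marker genes, and the part of cell make-up in the ratios, were not tested.

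Between the neural plate and the anterior pre-streak epiblast, libraries of the same laboratory, the genes differed in opposite directions. SOX2 was 54.9-fold higher [45.4, 66.9] in the neural plate than in the anterior pre-streak epiblast, number 9 of 8576 genes, in a comparison that called 14.8% of genes higher and 4.75% lower. SOX3 was lower in the neural plate, at 131 against 222 CPM, a log2 ratio of -0.76 that did not reach the ratio of 2. The median log2 ratio of all genes in this comparison was 0.18 on total counts, 0.03 with TMM scaling and 0.01 with DESeq2 size factors, and SOX3 lay at -0.90 with TMM. In FPKM SOX3 was past the ratio of 2, at -1.05 on the log2 scale. Node and axial mesoderm markers summed to 40.4 CPM in the neural plate and 242 CPM in the anterior pre-streak epiblast. Mesoderm markers summed to 2.43 and 175 CPM, with 1 and 2 of the 4 matched at 1 CPM or more. Neural crest markers went the other way, at 59.1 and 10.9 CPM. Which cells express these marker genes, and the part of cell make-up in the ratios, were not tested.

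**Figure D2:**
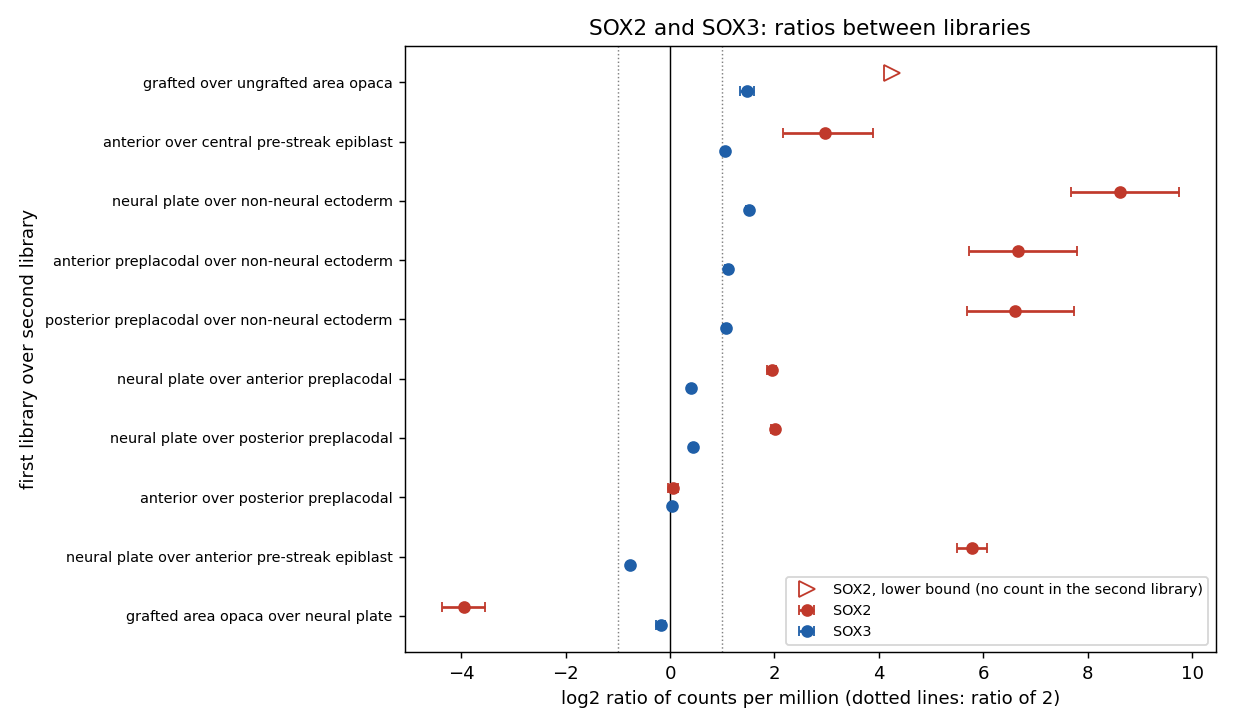
Log2 ratios of CPM for SOX2 (red) and SOX3 (blue) in 10 comparisons, each written as first library over second, with exact 95% intervals of counting error; the open triangle is a lower bound because the ungrafted area opaca had no SOX2 count. SOX3 ratios lay between -0.76 and 1.52, while SOX2 ratios reached 8.61 for neural plate over non-neural ectoderm.

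The share of SOX2 in the summed counts of both genes does not depend on the scaling of libraries. It was 0.490% [0.402, 0.590] in the anterior and 0.130% [0.0710, 0.218] in the central pre-streak epiblast, with exact Clopper-Pearson intervals. It was 3.26% [2.44, 4.27] in the grafted area opaca. In the ungrafted area opaca it was 0 of 606 counts, where 3 counts would be a share of 0.495% and the exact interval reaches 0.607%. At HH6/7 the neural plate had 31.3% [30.7, 32.0]. The anterior preplacodal region had 13.5% [12.9, 14.2], the posterior one 13.3% [12.8, 13.9], and the non-neural ectoderm 0.332% [0.152, 0.630]. The neural plate had the highest share and the preplacodal regions the next, with intervals that overlap each other and no other library's.

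Ratios of SOX2 to SOX3 counts show how far the genes moved apart between libraries. That ratio was 2.92-fold higher [2.74, 3.10] in the neural plate than in the anterior preplacodal region and 2.97-fold higher [2.81, 3.13] than in the posterior one. Between the preplacodal regions it differed by 1.02-fold [0.946, 1.09], so no difference was detectable at this depth and one of more than 1.09-fold lies outside the interval. It was at least 6.81-fold higher in grafted than in ungrafted area opaca, against a floor of 3 counts (the exact interval starts at 5.32-fold), and 6.86-fold higher [4.80, 9.69] in grafted area opaca than in anterior pre-streak epiblast. The anterior epiblast in turn exceeded the central one 3.78-fold [2.16, 7.15]. In the grafted area opaca the ratio was still 13.5-fold lower [10.2, 18.3] than in the neural plate. For every one of these pairs but the preplacodal one, the SOX2 to SOX3 ratio differed beyond counting error. The pair with the ungrafted area opaca has only a bound. Between grafted area opaca and anterior pre-streak epiblast the genes went in opposite directions. SOX2 stood at 3.91 against 1.09 CPM there, and SOX3 at 116 against 222 CPM.

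Levels of the genes can be set against each other only per length, in the authors' FPKM. In the anterior pre-streak epiblast SOX2 had 2.34 FPKM and the row with SOX3's counts 278 FPKM, and in the central epiblast 0.301 and 134 FPKM. The grafted area opaca had 7.90 FPKM of SOX2 and 147 FPKM of SOX3, while the ungrafted area opaca had SOX2 listed at 0 and 51.2 FPKM of SOX3. In the neural plate SOX2 reached 106 FPKM beside 134 FPKM of SOX3, or 44.0% of their sum. The anterior preplacodal region had 25.2 and 93.1 FPKM, the posterior one 24.7 and 92.6 FPKM, and SOX2 made up 21.3% and 21.1%. The non-neural ectoderm had 0.324 FPKM of SOX2 and 58.1 FPKM of SOX3. In FPKM SOX3 exceeded SOX2 in every library, by 1.27-fold in the neural plate and by up to 446-fold in the central pre-streak epiblast. The ungrafted area opaca gave no ratio. The small difference in the neural plate has no interval and depends on the gene lengths behind the FPKM, that of the unnamed row included. FPKM per CPM of SOX2 over that of the unnamed row ran from 1.60 to 1.73 between libraries. The summed FPKM of both genes was 280.5 in anterior pre-streak epiblast, 154 in grafted area opaca, 240.0 in the neural plate and 118 in the anterior preplacodal region.

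**Figure D3:**
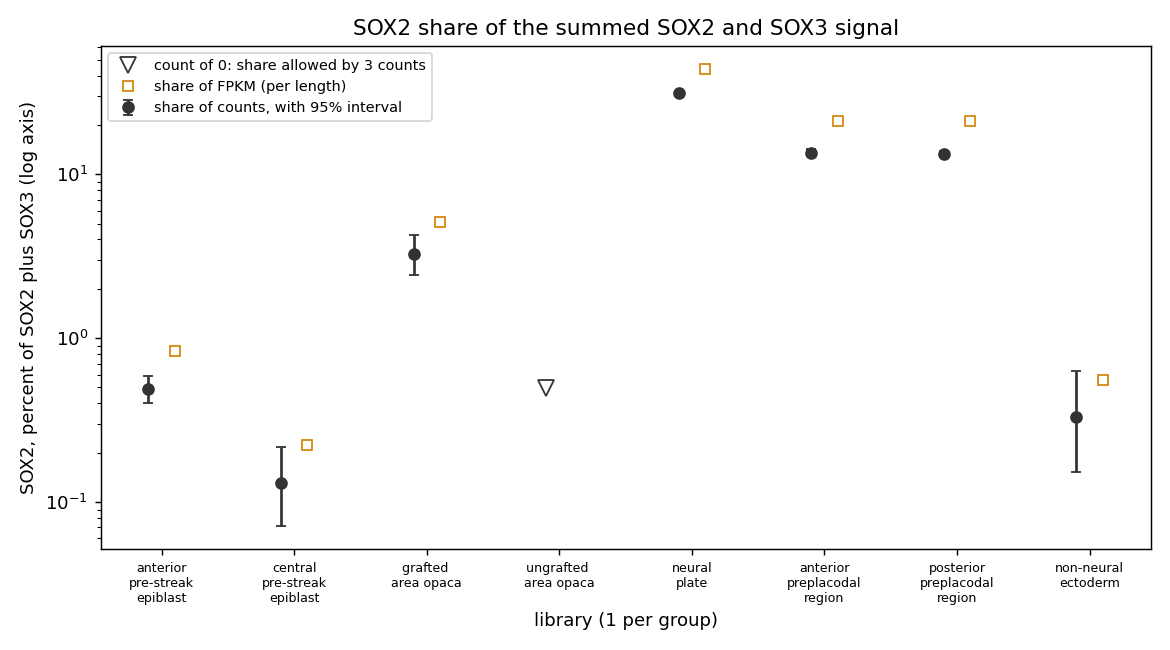
SOX2 as a percentage of SOX2 plus SOX3 in each library on a log axis: filled points are shares of counts with exact 95% binomial intervals, open squares shares of FPKM, and the open triangle the share that 3 counts would give where SOX2 had none. Where SOX2 had counts, its share ran from 0.130% in the central pre-streak epiblast to 31.3% in the neural plate, with the grafted area opaca at 3.26% between the pre-streak and the HH6/7 neural and preplacodal libraries.

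Other SOX genes were looked up from a list of 19 that includes SOX2 and SOX3, of which 15 have a row and 13 have counts. Without counts are SOX1, the remaining SoxB1 gene, and SOX4, RefSeq rows at 0 in all 8 libraries. Among RefSeq rows 41.4% are at 0 throughout, against 9.09% of Ensembl rows, so that these zeros are not read as absence. Apart from SOX2 and SOX3, 9 members reached 1 CPM in the neural plate or the non-neural ectoderm. There 3 were called higher in the neural plate, 0 were called lower and 6 neither. The 9 had a median log2 ratio of 0.71, against 0.02 over all genes at 1 CPM. Of those genes, taken at the same minimum as the list members, 7.73% were higher and 11.0% lower. SOX11, a SoxC gene of neural precursors, had 29.2 CPM in the neural plate and 2.50 CPM in the non-neural ectoderm. SOX13, a SoxD gene, had 148 and 72.0 CPM, and SOX5, also SoxD, 12.4 and 2.01 CPM. SOX11 and SOX13 were also the members called higher in grafted area opaca (13.2 against 1.30 and 75.4 against 23.8 CPM) and in anterior pre-streak epiblast (14.9 against 4.14 and 131 against 60.6 CPM). No member was called lower in these comparisons, where a call takes 5 CPM. Under that minimum SOX9 had 0.536 CPM in grafted and 3.09 CPM in ungrafted area opaca, and SOX6 0 and 1.17 CPM. SOX18 went the other way, with 1.76 and 0.549 CPM. SOX6 had 0.0182 CPM in neural plate and 1.67 CPM in non-neural ectoderm, and SOX8 3.56 and 0.511 CPM. In the area opaca 5 members were measured, and 6.29% of all genes at 1 CPM were higher and 7.13% lower. In the pre-streak pair 6 were measured, and 4.94% of all genes were higher and 3.83% lower. Members had median log2 ratios of 1.66 and 0.64 against 0.02 and 0.01 over all genes. SOX9, a SoxE gene of crest and otic tissue, was higher in the neural plate than in the anterior preplacodal region (20.2 against 8.43 CPM). SOX14, a SoxB2 gene, did not exceed 1.52 CPM in any library, and SOX21, its relative, was not matched by name.

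Genes that regulate SoxB1 genes or work with their products were a list of 19 with 16 matched. ERNI, an early node-response gene known in chick to hold back SOX2, and POU3F1 are RefSeq rows at 0 throughout and are not read. Between neural plate and non-neural ectoderm 4 of 14 measured members were higher, 2 lower and 8 neither (median log2 ratio 0.52 against 0.02 over all genes), beside 7.73% higher and 11.0% lower of all genes at 1 CPM. OTX2, a homeobox gene of the forebrain and midbrain, had 281 CPM in the neural plate and 14.4 CPM in the non-neural ectoderm, and the zinc finger gene ZIC2 had 124 against 0.170 CPM. In grafted against ungrafted area opaca 1 of 13 was called higher, 2 lower and 10 neither (median 0.18 against 0.02). That 1 of 13 is near the 6.29% of all genes called higher, and 7.13% were called lower. Among measured members too low for a call, ZIC2 had 3.91 CPM in grafted and 0 in ungrafted tissue, and ZEB2 1.15 and 0.206 CPM. OTX2 was the member called higher, with 108 CPM in grafted and 3.02 CPM in ungrafted tissue. SMARCA2, the Brahma ATPase known in chick to act at the SOX2 enhancer, was lower on the grafted side, at 8.12 against 47.1 CPM, and also lower in neural plate than in non-neural ectoderm, at 12.2 against 35.0 CPM. The other Brahma-type ATPase, SMARCA4, was neither, at 65.0 against 37.7 CPM and at 129.9 against 82.0 CPM. Geminin (GMNN), also known from work on SOX2 activation in chick, was neither in both, at 125 against 106 CPM and at 103 against 65.4 CPM. The pluripotency factor NANOG was lower on the grafted side (425 against 1044 CPM), and POUV, the chick POU5F3, was near equal (1269.5 against 1271 CPM).

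In the pre-streak pair 1 of 13 measured members of this list was called higher anteriorly, 1 lower and 11 neither (median 0.22 against 0.01). These counts are near the 4.94% higher and 3.83% lower of all genes. Among measured members too low for a call, ZIC2 had 2.83 CPM anteriorly and 0.0200 CPM centrally, and ZEB2 1.98 and 0.290 CPM. OTX2 was again the member called higher, with 112 CPM in the anterior and 18.2 CPM in the central epiblast. SMARCA2 was the member called lower, at 1.65 against 7.76 CPM. OTX2 was thus called higher, as SOX3 was, in the area opaca and pre-streak pairs and in neural plate over non-neural ectoderm. PAX-6, a paired-box gene of lens and eye, was lower in the neural plate than in the anterior preplacodal region (6.45 against 37.9 CPM), the reverse of SOX2.

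The neural plate list had 13 of 14 genes matched and 11 with counts, SIX3 being another RefSeq row at 0. Of 9 members measured, 7 were higher in neural plate than in non-neural ectoderm, 0 lower and 2 neither (median log2 ratio 1.97 against 0.02 over all genes), beside 7.73% higher and 11.0% lower of all genes. NES, an intermediate filament gene known as a target of SoxB1 and POU factors in mammals, stood at 258 against 111 CPM, and the cadherin CDH2 at 184 against 47.0 CPM. In the area opaca 4 of 9 were higher on the grafted side and 5 neither (median 1.10 against 0.02), beside 6.29% higher of all genes. MSI1, an RNA-binding protein of neural precursors, had 127 CPM in grafted and 7.48 CPM in ungrafted area opaca, whereas NES had 65.0 and 45.6 CPM and CDH2 20.5 and 12.5 CPM. Anteriorly in the pre-streak epiblast 6 of 9 were higher and 3 neither (median 1.27 against 0.01), beside 4.94% higher of all genes. Among measured members too low for a call, HES5 went the other way, with 0.241 CPM anteriorly and 1.13 CPM centrally. HESX1 had 2.08 and 1.56 CPM. In the area opaca HES5 had 2.53 CPM in grafted and 0.0686 CPM in ungrafted tissue. In the neural plate 8 of 9 were higher than in the anterior pre-streak epiblast and 1, the fatty acid binding protein gene FABP7, was lower (80.0 against 160.3 CPM; list median 2.67 against 0.20 over all genes), beside 12.3% higher and 3.95% lower of all genes. FABP7 and SOX3 thus both had their highest level in the anterior pre-streak epiblast.

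**Figure D4:**
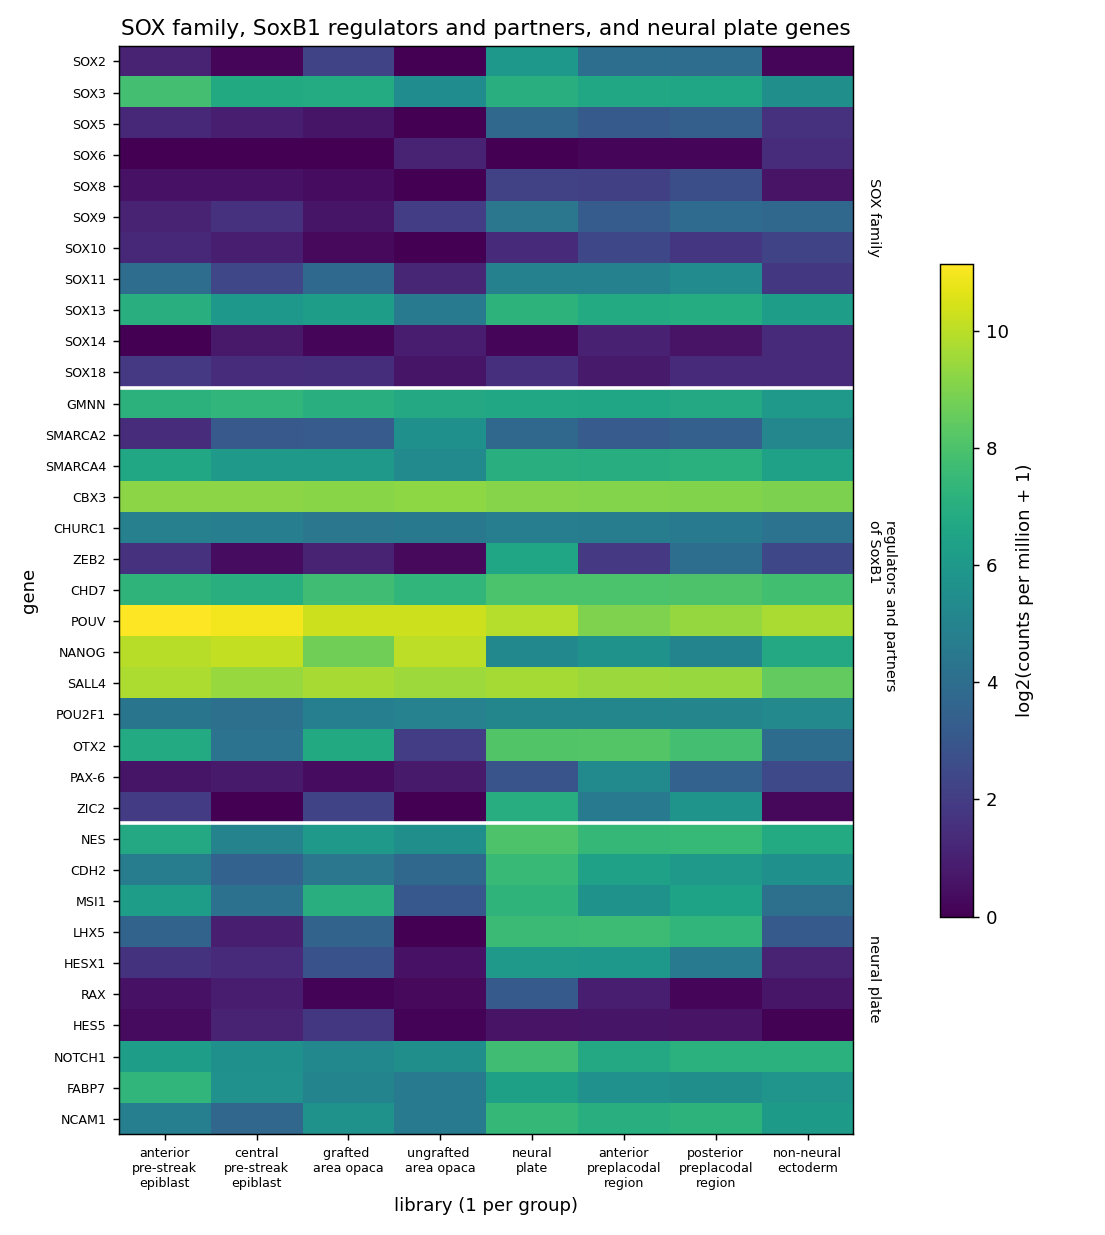
Levels as log2(CPM + 1) of the genes of the 3 lists that reached 1 CPM in any library, 1 row per gene and 1 column per library. SOX2, ZIC2 and LHX5 are dark in the ungrafted area opaca and brighter in the neural plate. SOX3 lies off the dark end of the scale in every column and is brightest in the anterior pre-streak epiblast.

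Patterns over the 8 libraries were compared by Pearson's r of log2(CPM + 1), given as a description: libraries that share a stage and laboratory are not independent points. SOX2 and SOX3 resembled each other little (r 0.40, Spearman coefficient 0.45), and SOX3 was number 2939 among the 8419 genes ranked for SOX2. The 5 genes most like SOX2 were ZIC2 (r 0.983), the membrane protein gene NKAIN1 (0.976), KLHL25 (0.974), a ubiquitin ligase adaptor, the secreted WNT antagonist FRZB (0.974) and the phosphatase PPM1D (0.971); 25 genes exceeded 0.95. FRZB stood at 679 CPM in the neural plate. The anterior preplacodal region had 218 CPM of it, the posterior one 335 CPM and the non-neural ectoderm 36.0 CPM. ZIC2 had 3.91 CPM in the grafted area opaca, the same number of counts as SOX2, and none in the ungrafted. PPM1D ran only between 30.4 and 47.9 CPM.

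The 5 genes most like SOX3 were FGF13 (r 0.986), an FGF homologue that stays in the cell, the adhesion molecule NEGR1 (0.983), the neurotrophin receptor NGFR (0.980), the nuclear RNA-binding protein HNRNPU (0.978) and DPYSL3 (0.967), a cytoskeletal regulator of neurites; 21 genes exceeded 0.95. FGF13 stood at 18.9 CPM in the anterior and 7.40 CPM in the central epiblast, at 6.82 CPM in grafted and 0.206 CPM in ungrafted area opaca, and at 11.5 CPM in the neural plate and 0.971 CPM in the non-neural ectoderm. All 5 were highest in the anterior pre-streak epiblast and lowest in the ungrafted area opaca, as SOX3 was on total counts. They were chosen for a pattern like that of SOX3, so this likeness is no separate result. HNRNPU ran only between 545 and 932 CPM. Which genes lead these rankings depends on the measure. For SOX2, ZIC2 went from rank 1 to rank 2 with TMM scaling, 3 with a pseudocount of 0.1 and 8 by Spearman coefficient.

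**Figure D5:**
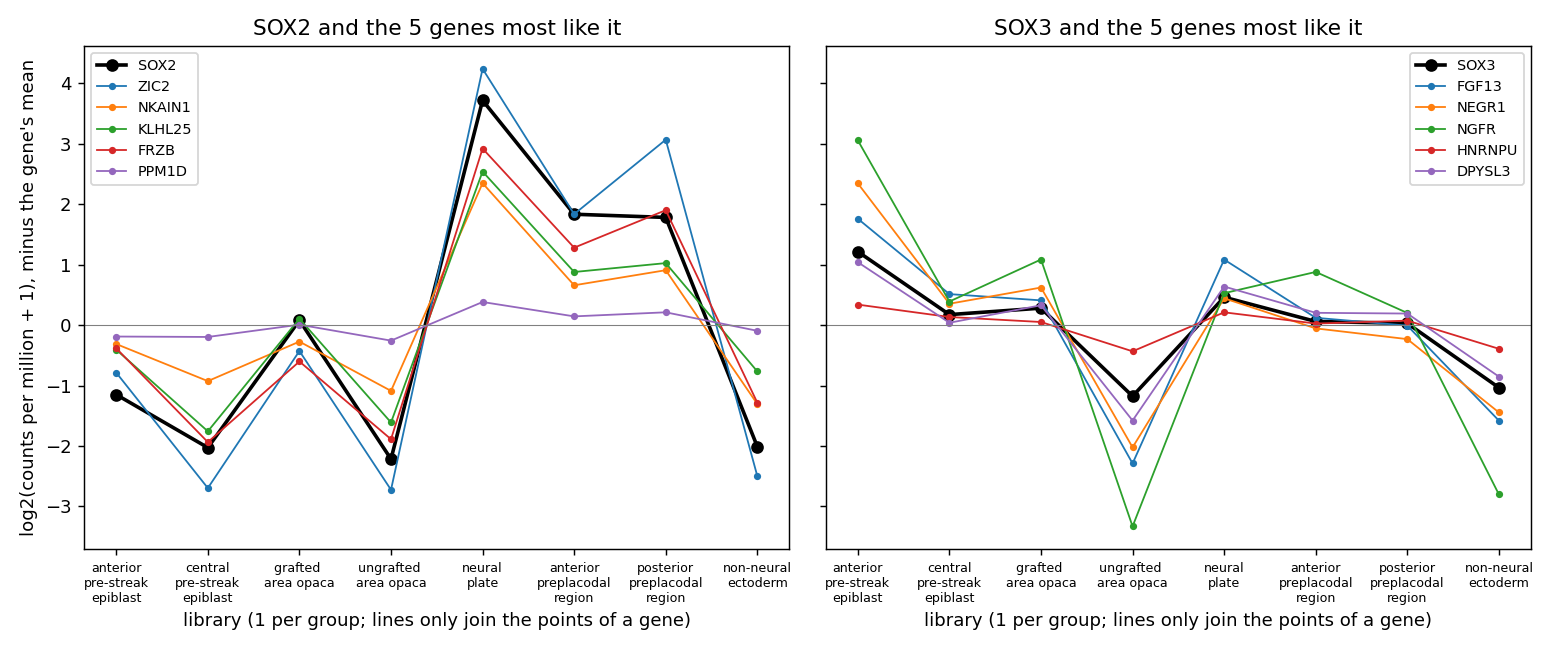
Log2(CPM + 1) minus the gene's own mean in each library, for SOX2 (left, black) and SOX3 (right, black) with the 5 genes of highest Pearson correlation to each; the lines only join the points of a gene. The SOX2 group peaks in the neural plate and the SOX3 group in the anterior pre-streak epiblast, and both groups are lowest or near lowest in the ungrafted area opaca.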

How the data were processed

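Messenger RNA was sequenced in 8 libraries, 1 per group. Raw counts per gene were deposited in 1 table, per the file headers and values, and the authors' FPKM (fragments scaled to gene length and library size) in another. Per the submitters' processing notes, TopHat2 and galGal4 were used; no source used here names the counting program, annotation or strand setting. Columns were assigned by the tissue and library codes in their names.

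CPM used column totals. TMM factors (edgeR 4.0.16) and size factors (DESeq2 1.42.0, R 4.3.3) served as alternatives, with FPKM plus 0.1, a minimum of 1 CPM and a ratio of 4. The FPKM values of the unnamed row with SOX3's counts were added after seeing the data. Intervals are exact Clopper-Pearson (ratios, shares) or Poisson (levels). The code for ratio intervals and calls was run on simulated Poisson counts, the model that the intervals assume. These counts hold no variation between embryos. The genes checked do not reach down to the SOX2 levels of the area opaca and pre-streak pairs. Nor do they reach those of the pairs among the preplacodal regions and the non-neural ectoderm. The ratios planted were also smaller than the largest SOX2 ratios. Named genes are the members, members of 3 lists, and the 5 genes of highest r with each member among genes at 10 CPM with a symbol that is not a placeholder; neighbouring genes and the examples quoted from lists were picked after values were seen. List members count as measured at 1 CPM in either library of a pair; a 0 entered medians as 3 counts. Shares of all genes beside list counts are over genes at 1 CPM, other shares over genes at 5 CPM. A member of the regulator list is not reported here and enters no count of it. PAX6 and POU5F3 were matched as PAX-6 and POUV through the RefSeq table (assembly GRCg7b). The members and lists were chosen with earlier results of these data known. Calculations used Python 3.11.15, pandas 2.3.3, numpy 2.4.6, scipy 1.17.1 and matplotlib 3.10.9.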

Additional observations from a re-analysis of the deposited data

How the results depend on the processing

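No paired analysis was possible because each group holds 1 library, and none could be left out. Of the 20 log2 ratios (SOX2 and SOX3 in 10 comparisons), 16 stayed within their counting interval with TMM scaling and 16 with DESeq2 size factors, and no called ratio changed sign or lost its call with either. The exceptions were ratios of SOX3. With TMM it was 1.58 for neural plate over non-neural ectoderm, 0.45 over anterior preplacodal region and -0.90 over anterior pre-streak epiblast, and -0.083 for grafted area opaca over neural plate. With DESeq2 size factors it was 0.47 and 0.49 for neural plate over anterior and posterior preplacodal region, -0.92 over anterior pre-streak epiblast and -0.051 for grafted area opaca over neural plate. In FPKM, SOX3 in neural plate was at 1.21 over non-neural ectoderm, 0.53 and 0.54 over anterior and posterior preplacodal region, and -1.05 over anterior pre-streak epiblast, where it gained a call. SOX3 of the anterior and posterior preplacodal regions over non-neural ectoderm fell to 0.68 and 0.67 and lost its call, and grafted area opaca over neural plate was 0.12; the cause was not tested. SOX2 in FPKM was at 2.06, 2.09 and 5.44 for neural plate over anterior and posterior preplacodal region and anterior pre-streak epiblast. Over non-neural ectoderm SOX2 moved by over 1.5 times, to 249-fold, 59.6-fold and 58.6-fold in neural plate, anterior and posterior preplacodal region. The pseudocount of 0.1 is a part of this move, as it was added to only 0.324 FPKM of SOX2 in non-neural ectoderm. SOX2 in the area opaca is listed at 0 FPKM on the ungrafted side and got no FPKM ratio.

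With a minimum of 1 CPM, SOX2 gained a call in the area opaca (at least 4.25) and the pre-streak epiblast (2.97); the higher genes then numbered 1149 in place of 713 and 988 in place of 567. With a ratio of 4, calls were lost for SOX3 in grafted area opaca (1.48; 286 genes higher), anterior pre-streak epiblast (1.05; 146), neural plate (1.52; 346 in place of 937) and anterior and posterior preplacodal region over non-neural ectoderm (1.11 and 1.08; 190 in place of 683 and 203 in place of 703), and for SOX2 in neural plate over anterior preplacodal region (1.95; 69 in place of 285). Of the 5 genes most like SOX2, 2 stayed among the first 5 with TMM, 1 with a pseudocount of 0.1 and 0 by Spearman coefficient; of those most like SOX3, 3, 3 and 2 did. Neither symbol had a second row of the same name. The share of counts used the named SOX3 row, and the unnamed row held the same counts within 2 counts. In FPKM in place of counts the share of SOX2 was 0.835% (counts 0.490%) in anterior and 0.224% (0.130%) in central pre-streak epiblast, 5.11% (3.26%) in grafted area opaca and 44.0% (31.3%) in neural plate. It was 21.3% (13.5%) in anterior and 21.1% (13.3%) in posterior preplacodal region and 0.554% (0.332%) in non-neural ectoderm. Low counts limit SOX2 more than SOX3. The SOX2 ratios to non-neural ectoderm rest on 9 counts, and in the ungrafted library, where SOX2 had none, 3 counts are 0.206 CPM.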

Other observations

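Genes beside SOX3 in the RefSeq table (assembly GRCg7b, used for gene order alone) were looked up after their values were seen. GABRA3, a GABA-A receptor subunit gene 2 protein-coding genes from SOX3, stood at 9.92 CPM in the anterior and 1.46 CPM in the central pre-streak epiblast, and at 12.4 CPM in grafted and 0.343 CPM in ungrafted area opaca. At HH6/7 it had 82.0 CPM in the neural plate, 39.8 and 41.4 CPM in the anterior and posterior preplacodal region, and 3.20 CPM in the non-neural ectoderm. Over the 8 libraries its pattern was nearer to SOX2 (r 0.955) than to SOX3 (0.535). The next receptor subunit gene, GABRE, did likewise at lower levels (r 0.968 and 0.431), with 6.55 CPM in the neural plate and 0.681 CPM in the non-neural ectoderm. Farther on this side PRRG3 was also nearer to SOX2 (r 0.944 against 0.248 with SOX3). So were CNGA2 (0.794 against 0.0946) and RIPPLY1 (0.771 against 0.247), at no more than 0.328 and 0.228 CPM. CLDN2 did not share this (r -0.490 with SOX2 and -0.231 with SOX3), at no more than 0.669 CPM. On the other side, TRAIL-LIKE, a death ligand gene 2 protein-coding genes away, was nearer to SOX3 (r 0.954) than to SOX2 (0.407), with 66.4 CPM in the anterior and 12.8 CPM in the central pre-streak epiblast and 48.6 CPM in grafted and 1.37 CPM in ungrafted area opaca. Other genes of that side did not share this. SLITRK4, the gene next to SOX3, was nearer to SOX2 (r 0.7226) than to SOX3 (0.2495), at no more than 4.98 CPM. BRWD3, 7 protein-coding genes away, was also nearer to SOX2 (r 0.6015 against -0.2283). CLCN5 and FAM46D, which lie between them, were close to neither (r 0.01005 and 0.04445 with SOX2, 0.2447 and 0.1092 with SOX3). Over the 8419 genes ranked above, the median r was 0.146 with SOX2 and -0.034 with SOX3. Of these genes, 157 exceeded an r of 0.9 with SOX2 and 98 with SOX3. A lean to SOX2 is therefore not particular to this stretch of the genome. The difference between these coefficients was not tested.

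The 3 rows named as exons of SOX2OT, the transcript that overlaps SOX2, held at most 17 counts in any library. The exon 3 row had 17 in the neural plate and 17 in the posterior preplacodal region, against 6590 and 2073 counts of SOX2. In the central pre-streak epiblast this row had 14 counts, as many as SOX2. It had 3 against 9 of SOX2 in the non-neural ectoderm, and 2 against 0 in the ungrafted area opaca. The anterior pre-streak epiblast had 3 against 109, and the grafted area opaca 1 against 51. The part of an overlapping transcript in the SOX2 counts was not tested.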
